A study of Bos taurus with 18 samples.

Results

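Glycosaminoglycan enzyme genes were followed through bulk mRNA sequencing of bovine bone marrow-derived mesenchymal stem cells (MSCs). The set is a list of 37 genes, 6 for the linker that joins a chain to its core protein, 8 for chondroitin and dermatan chains, 15 for heparan chains and 8 for the sugar and sulfate precursors. It was taken by gene symbol, and all 37 symbols are among the 16989 genes of the count files. Gene positions and sequences were not analysed here.

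Libraries came from 17 clonal populations (A to Q), each grown from 1 cell, and from 1 heterogeneous population of the same juvenile animal. All were grown on tissue culture plastic in a basal medium with serum and antibiotics, without a chondrogenic factor, and RNA was taken at passage 1. Each population is 1 library, so the errors below describe the spread between clones of 1 donor and nothing about repeat cultures or other animals. The study asked whether differences in matrix gene expression between cells follow differences in the matrix they deposit, and the present values bear only on the expression side.

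The glycosaminoglycans followed here, chondroitin, dermatan and heparan sulfate, are long sugar chains built in the Golgi on serines of core proteins. A short linker is made first, and the next sugar added decides whether the chain becomes chondroitin or heparan sulfate. In cartilage, chondroitin sulfate chains on aggrecan (ACAN) hold water and give the tissue its stiffness in compression. The enzymes draw on activated sugars and on the sulfate donor PAPS. Most of these are made in the cytosol and carried into the secretory pathway, while UDP-xylose is made inside it.

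The clonal libraries had between 11484812 and 18458157 reads assigned to genes, with a median of 14193790, and the heterogeneous one had 16092501. Levels are given as CPM, read counts scaled to library size, with TMM to adjust that size. Spreads, correlations and log2 ratios of pairs are on the log2(CPM + 0.25) scale, where a pseudocount understates changes of low genes. Slopes and log2 differences come from edgeR fits to the counts. A count of 0 allows up to 3 reads, which is 0.163 to 0.261 CPM, and this limit covers counting error only. Reads outside genes took 18.8% to 26.8% of the files, highest in N and then L. All 10 listed MSC markers had reads, VCAM1 at most 47. Of 5 blood cell markers, ITGAM was at 0 in all 18 libraries and the others had at most 10 reads in any clone, but the heterogeneous library had 102 reads of PTPRC. Of 6 endothelial markers, CDH5 and ESAM were at 0 in all libraries, KDR had at most 1 read, and the clones had 3 to 41 reads of PECAM1, 3 to 33 of TEK and 9 to 93 of VWF, with 170 of VWF in the heterogeneous library. Clones C and O lay closer to each other than any other of the 136 pairs of clones, with a median absolute log2 difference of 0.102 per gene against 0.325 over all pairs. They still differed by more than sampling noise, with a chi-square per degree of freedom of 4.83 where counting error alone gives about 1, and were kept as separate clones. Results that rest on them are given with and without them.

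Most of the pathway was expressed in every clone. IMPAD1, which encodes a Golgi phosphatase that clears the by-product of PAPS, is listed at 0 in all 18 libraries, as are 2548 genes in all. Whether reads could be assigned to this gene in the annotation used was not tested, so its 0 is not read as a lack of expression. The heparan sulfotransferase genes HS6ST2 (0 to 4 reads) and HS3ST1 (0 to 14 reads) and the chondroitin-initiating CSGALNACT1 (0 to 29 reads) stayed near the limit in most libraries. These 4 genes were left out of the slope tests by the filter on low counts. The other 33 entered them.

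As for spread, the median SD of the 33 genes over the 17 clones was 0.37 log2 units, against 0.32 for all 11227 genes tested, and 24 of the 33 lay above that all-gene median. By step, the median SD was 0.33 for the linker, 0.40 for chondroitin, 0.47 for heparan and 0.37 for the precursors. In bulk RNA, fewer cells with a transcript and less of it per cell cannot be told apart.

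Of the linker genes, XYLT1 varied most. It encodes one of the xylosyltransferases that start the linker of chondroitin and heparan chains. Its level ran from 96.4 CPM in M over a median of 165 to 438 in O, with an SD of 0.70. Clones C (387 CPM), N (347) and P (293) followed O. Its relative XYLT2 kept within 41.9 (L) and 76.9 CPM (P), with a median of 51.3. The log2 ratio of XYLT1 to XYLT2 therefore moved from 0.67 in M to 3.25 in O. The linker kinase gene FAM20B ran from 15.9 CPM (D) over 18.6 to 35.9 (O). The galactosyltransferase gene B4GALT7 was the narrowest of the step, from 25.2 (L) over 36.2 to 44.9 CPM (A), with an SD of 0.24. B3GALT6, which adds the next galactose, ran from 5.17 (L) to 12.2 CPM (O) and B3GAT3, which closes the linker with glucuronic acid, from 49.6 (L) to 121 (A). Clone L thus had the lowest level of 4 of the 6 linker genes, all but XYLT1 and FAM20B.

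In the chondroitin step, CHSY3, a synthase that lengthens the chain, was widest among the genes tested. It ran from 24.3 CPM in L over a median of 38.7 to 95.8 in O, with an SD of 0.64, and E (93.4) and C (86.0) were nearly as high as O. The main synthase CHSY1 ran from 108 (M) over 173 to 262 CPM (O). Its polymerizing partner CHPF ran from 204 (L) over 486 to 821 CPM (D), and CHPF2, a relative of CHPF, from 84.3 (L) over 110 to 159 (P). CSGALNACT2, which adds the first chondroitin sugar, stood at 79.0 CPM in Q and 61.7 in N and at 23.8 to 42.1 elsewhere. The epimerases that turn chondroitin into dermatan sulfate differed from each other in spread. DSE was the narrowest of the step, from 197 (P) over 251 to 352 CPM (E), whereas DSEL ran from 22.2 (N) over 39.6 to 91.7 (M).

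The heparan genes held the widest and the narrowest members of all those tested, HS3ST3A1 and EXTL1 (SD 1.18 and 1.17) and EXT2 (0.20). Counting error alone, reckoned without the pseudocount, gives an SD of 0.90 for HS3ST3A1 (median 3 reads) and 0.22 for EXTL1. The spread of HS3ST3A1 is therefore not read as a difference between clones alone. EXTL1, a glycosyltransferase related to the heparan polymerases, stood at 25.9 CPM in P and 23.9 in Q, from 461 and 358 reads, and between 0.862 (L) and 8.19 (D) in the other clones. The heterogeneous library had 8.54. The polymerase genes EXT1 and EXT2 form one enzyme complex. EXT2 stayed within 196 (I) and 313 CPM (A), and EXT1 ran from 24.8 (N) to 79.5 (G). EXTL3, which adds the first heparan sugar, had 60.9 CPM in O and 57.9 in C against 20.8 (B) to 42.7 (G) in the others, and EXTL2, a related transferase, ran from 18.2 (D) to 37.5 (N).

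The genes that modify the heparan chain differed in which clones led. NDST1, which removes acetyl groups and adds sulfate, was highest in O (166 CPM) and C (159) and lowest in N (74.3), and NDST2 stayed within 18.6 (K) and 32.0 (P). The epimerase gene GLCE ran from 16.7 (A) over 23.1 to 39.2 CPM (O). HS2ST1, which sulfates the uronic acid, ran from 9.48 (M) over 13 to 25.5 (N). HS6ST1, which sulfates glucosamine, ran from 10.5 (B) over 14.8 to 46.8 (N), and Q followed with 30.1. HS3ST3A1, which adds a rare late sulfate, was near the limit in most clones (median 0.271 CPM) and reached 3.98 in O, 2.99 in C and 1.63 in P, from 66, 44 and 29 reads. Its sequence is close to that of a sister gene, so short reads may be divided between them. The surface sulfatases SULF1 (81.6 in G to 374 CPM in P) and SULF2 (119 in M to 496 in P) were both highest in P.

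Among the precursor genes, PAPSS2 stood apart. It encodes one of the enzymes that make PAPS and had 296 CPM in O and 259 in C, against 44.3 (M) to 87.5 (G) in the other 15 clones, whose median was 65.1. The mean of C and O was 4.26-fold that median. PAPSS1, the other PAPS synthase gene, was highest in N (183 CPM) and lowest in D (64.6), with 133 in O and 126 in C. UGP2, which makes UDP-glucose, ran from 94.5 (O) over 112 to 202 CPM (N). UGDH, which oxidizes it to UDP-glucuronic acid, ran from 52.1 (D) over 111 to 199 (N). UXS1, which turns that sugar into the UDP-xylose used for the linker, ran from 58.9 (D) over 67.5 to 117 (O). SLC35D1, which carries UDP-sugars, was the narrowest of the step, from 4.26 (K) over 6.53 to 9.29 CPM (O), and the sulfate transporter gene SLC26A2 ran from 8.49 (P) to 27.8 (D).

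**Figure D1:**
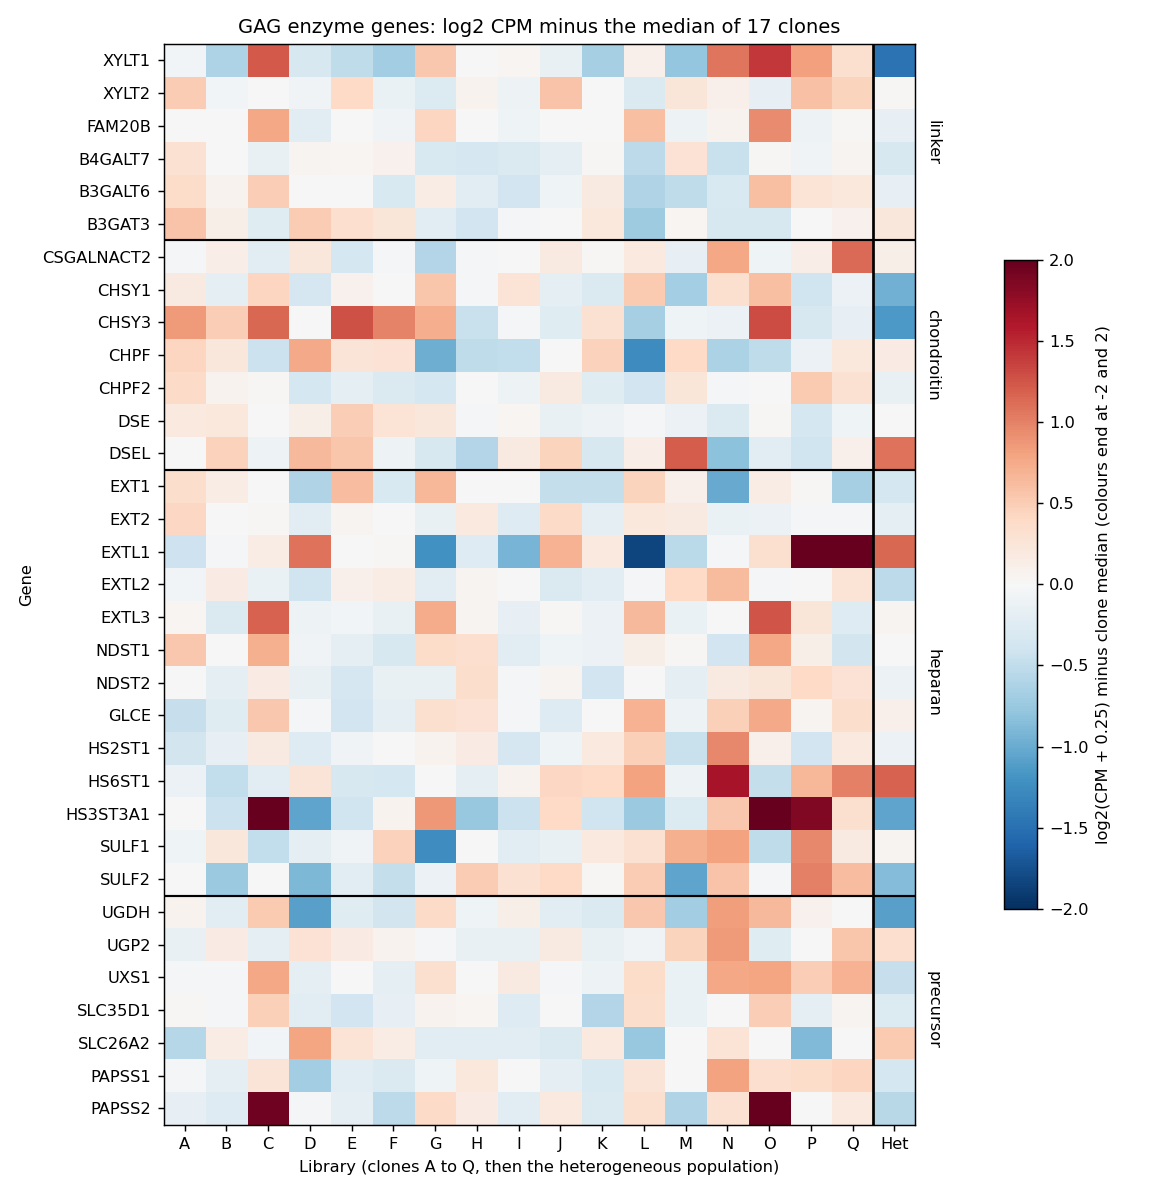
Heat map of the 33 tested glycosaminoglycan enzyme genes (rows, by step) in the 17 clones and the heterogeneous library (columns); colour is the log2(CPM + 0.25) minus the median of the 17 clones, ending at -2 and 2. PAPSS2 is darkest in C and O, EXTL1 in P and Q, and the heterogeneous library is on the blue side for XYLT1, CHSY1, CHSY3 and UGDH.

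O was the highest clone for 12 of the 33 genes (36.4%), N for 6 and P for 6 (18.2% each), where the shares over all genes were 11.9%, 13% and 6.83%. L was the lowest for 8 (24.2%), D for 6 (18.2%) and M for 5 (15.2%), where those shares were 9.82%, 6.08% and 6.46%. C and O were the 2 highest clones for 9 genes (27.3%), namely XYLT1, FAM20B, B3GALT6, EXTL3, NDST1, HS3ST3A1, UXS1, SLC35D1 and PAPSS2. The background for that pattern was 9.16% of the 11227 genes. HS3ST3A1 is in this count and in that of O. It passed the filter on low counts only through clones where it was high, C and O among them. Its place in both counts therefore carries no weight.

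Each clone was next set against the other 16. With edgeR's quasi-likelihood test and Benjamini-Hochberg adjustment over all genes, 0 of 595 tests of the set (35 genes in 17 clones) passed an adjusted p of 0.05, where the background was 0.045% of all tests. At an unadjusted p under 0.05 there were 36 (6.05%, against 4.40% over all genes). N had 8 of them and O 7, and over all genes these clones also had larger shares, 16.5% in N and 7.56% in O. The limma-voom test called 6 (background 0.262%) and the DESeq2 Wald test 3 (background 0.205%). N came nearest to the threshold. HS2ST1 was 1.03 log2 units above the other clones there (SE 0.25, adjusted p 0.0659), HS6ST1 1.54 (SE 0.40, adjusted p 0.0768) and UGP2 0.82 (SE 0.23, adjusted p 0.0917). Limma-voom called HS2ST1, HS6ST1 and HS3ST1 in N, CSGALNACT1 and HS3ST3A1 in O and EXTL1 in P. HS3ST1 passed the filter on low counts through N alone (14 reads) and CSGALNACT1 through C and O alone (20 and 29 reads), so their calls in those clones carry no weight. HS3ST3A1 passed it only through clones where it was high, O among them (66 reads), so its call in O carries none either. These genes are also part of the unadjusted counts of N and O above, and carry no weight there. The DESeq2 Wald test called HS2ST1, HS6ST1 and UGP2 in N.

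For C and O the close partner was among the other clones in those fits. A comparison chosen after seeing the data left it out. In it, edgeR called PAPSS2 in both clones, at a log2 difference of 1.98 in C (SE 0.25, adjusted p 0.00133) and 2.17 in O (SE 0.24, adjusted p 0.000279), and no other gene of the set. The background was 0.111% of 11745 genes for C and 0.204% of 11751 for O. At an unadjusted p under 0.05 there were 8 of 35 genes of the set in C and 10 in O, all higher, against 8.81% and 13% of all genes. Both counts include CSGALNACT1 and HS3ST3A1, which passed the filter on low counts through clones where they were high. These genes carry no weight there, so the counts are too large. C and O are not independent of each other as far as their closeness goes, so the finding in one is no repeat of the other.

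Next, the genes were tested for a slope on ACAN, the core protein of cartilage aggrecan. ACAN itself ran from 18.4 CPM in H over a median of 130 to 2670 in N, with Q (1300), O (1360), C (1200) and P (743) above the rest, an SD of 2.10 log2 units. Of the 33 genes, 5 rose with ACAN by edgeR's quasi-likelihood test and none fell (15.2%), where the background was 5.36% of 11226 genes (3.23% rising and 2.13% falling). They were XYLT1 of the linker, HS6ST1 and HS3ST3A1 of the heparan step, and UXS1 and PAPSS2 of the precursors. HS3ST3A1 passed the filter on low counts only through clones where it was high, C and O among them, and without it the count was 4 of 32 (12.5%). No chondroitin gene passed. At an unadjusted p under 0.05 there was 1 of those 7, CSGALNACT2, which the DESeq2 Wald test called and limma-voom did not. At an unadjusted p under 0.05 over the whole set there were 14 of the 33, all rising, against 21.7% of all genes. The slope was positive in 26 of the 33 (55.6% of all genes), in 7 of 7 precursor and 11 of 13 heparan genes but 4 of 7 chondroitin genes. The median slope was 0.06, against 0.01 for all genes.

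UXS1 had the smallest p of the set on ACAN. N, O and C had 116, 117 and 116 CPM, Q 110 and P 95.1, and the other 12 clones lay between 58.9 and 87.6, so the 5 clones highest in ACAN were also the 5 highest in UXS1. Its slope was 0.14 log2 units per log2 unit of ACAN, or 1.10-fold per doubling (SE 0.02, edgeR adjusted p 0.00428). It passed the threshold in all 27 alternatives tried. XYLT1 rose by 0.24 (SE 0.05, adjusted p 0.0100), or 1.18-fold per doubling, and without C and O by 0.18 (SE 0.05, adjusted p 0.05002), just outside the threshold. Both genes lie on the way to the first sugar of the linker, UXS1 by making UDP-xylose and XYLT1 by using it.

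PAPSS2 had a slope of 0.26 (SE 0.07, edgeR adjusted p 0.0294). It rested on C and O, since without them the slope was 0.06 (SE 0.04, adjusted p 0.322), and N, with the most ACAN, had 83.1 CPM of PAPSS2. HS3ST3A1 had a slope of 0.71 (SE 0.15, adjusted p 0.0110) at few reads, and without C and O it did not pass the filter on low counts. HS6ST1 had the opposite dependence. It rose by 0.19 (SE 0.05, adjusted p 0.0418) over all clones and by 0.26 (SE 0.04, adjusted p 0.00117) without C and O, which were high in ACAN but had 12.8 and 10.6 CPM of HS6ST1. The call on HS6ST1 was lost in 14 of 27 alternatives, among them without N, where the slope was 0.11 (adjusted p 0.266).

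Without C and O, which was chosen after seeing the data, 4 of 32 genes passed (background 7.33% of 11299). These were UXS1 at 0.12 (SE 0.03, edgeR adjusted p 0.0205), HS6ST1, CSGALNACT2 at 0.16 (SE 0.03, adjusted p 0.0122) and EXTL1 at 0.48 (SE 0.13, adjusted p 0.0319). Over all 17 clones CSGALNACT2 had 0.12 (SE 0.04, adjusted p 0.0801) and EXTL1 0.40 (SE 0.12, adjusted p 0.0668). Leaving out 1 clone at a time gave 3 to 8 genes, with 3 without E, G, M, N, O or P and 8 without H. The share over all genes moved as well, from 2.33% without N to 10.4% without H, against 5.36% with all clones. The limma-voom test called 2, UXS1 and XYLT1 (background 4.28%). With library totals in place of TMM 7 genes of the set rose and none fell (background 6.1%), and the split over all genes was 517 rising and 168 falling against 363 and 239.

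**Figure D2:**
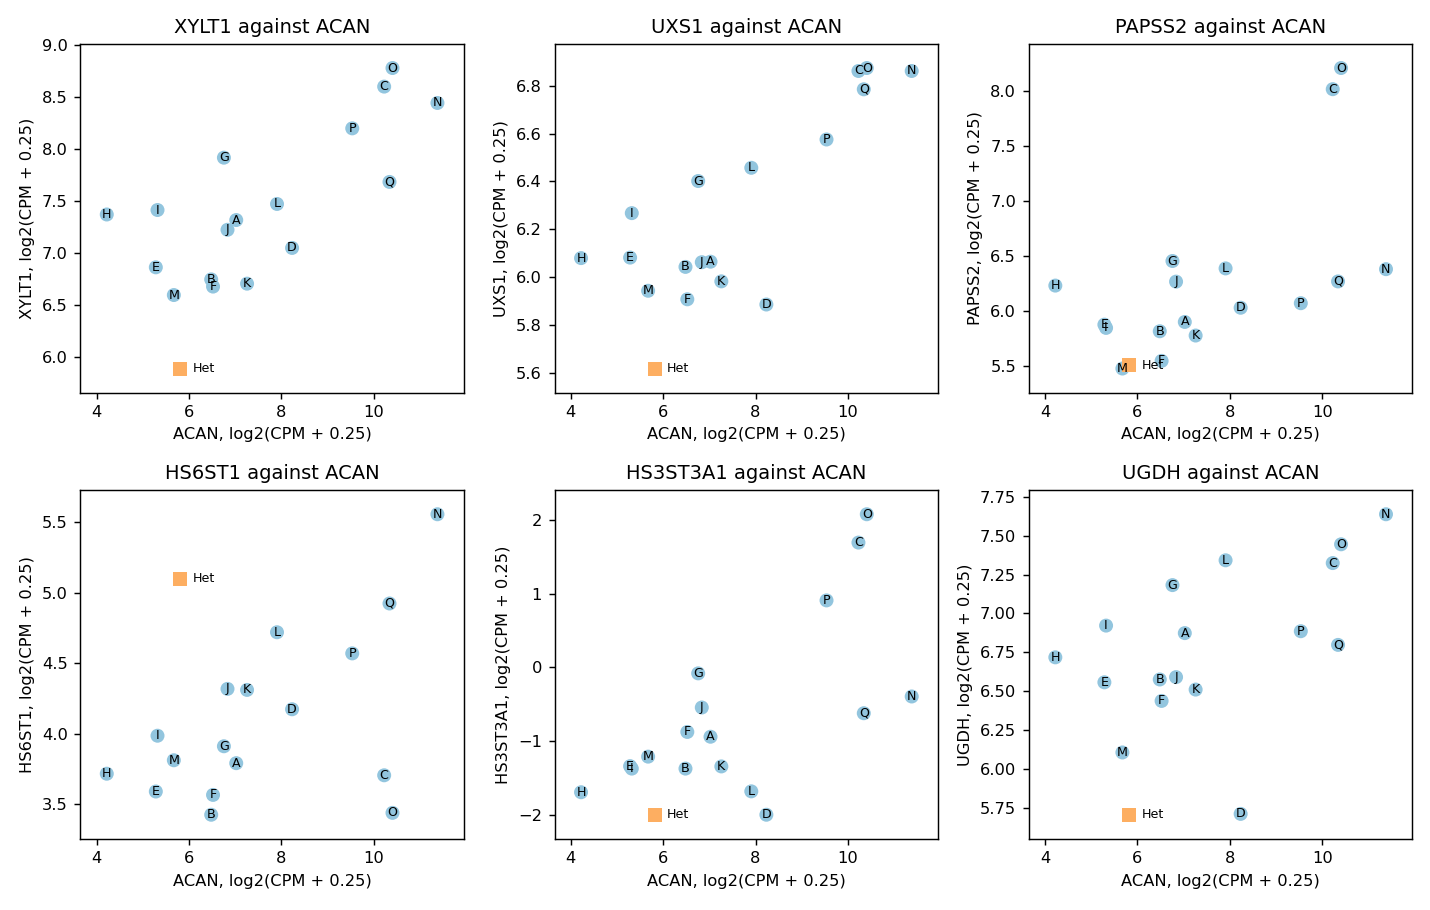
Level of 6 enzyme genes (y axis) against ACAN (x axis), both as log2(CPM + 0.25), with 1 lettered point per clone and a square for the heterogeneous library, which was not part of the slope. UXS1 and XYLT1 are high in the clones highest in ACAN, PAPSS2 is high in C and O alone, and HS6ST1 is low in C and O.

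The same test was run on MKI67, a gene of dividing cells. MKI67 ran from 21.7 CPM in M over 93.8 to 593 in O, with L (560), C (538) and G (512) close to O, an SD of 1.43. Of the 33 genes, 16 passed (48.5%), and the background was itself 37.1% of 11226 genes, 18.2% rising (2044) and 18.9% falling (2120). The 11 that rose were XYLT1, FAM20B, CHSY1, EXTL3, NDST1, GLCE, HS3ST3A1, UGDH, UXS1, SLC35D1 and PAPSS2. HS3ST3A1 passed the filter through its few high clones here too, and without it 15 of 32 passed (46.9%). The 5 that fell were B4GALT7, B3GAT3, CHPF, DSEL and UGP2. With library totals 13 rose and 2 fell (CHPF and B3GAT3; background 37.8%), and the split over all genes was 3343 rising and 902 falling. B4GALT7, DSEL and UGP2 did not pass with library totals.

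Members of one step did not all go the same way. Of the linker genes, XYLT1 (0.35, SE 0.09, edgeR adjusted p 0.00500) and FAM20B (0.20, SE 0.03, adjusted p 0.000176) rose with MKI67, and B4GALT7 (-0.10, SE 0.03, adjusted p 0.0304) and B3GAT3 (-0.16, SE 0.04, adjusted p 0.00720) fell. XYLT2 had -0.10 (adjusted p 0.104) and B3GALT6 0.08 (adjusted p 0.304), and without C and O XYLT1 had 0.23 (SE 0.11, adjusted p 0.1495). CHSY1 rose by 0.21 (SE 0.04, adjusted p 0.000318) and its partner CHPF had -0.32 (SE 0.06, adjusted p 0.000271). EXTL3 rose by 0.30 (SE 0.04, adjusted p 1.87e-05) and PAPSS2 by 0.45 (SE 0.08, adjusted p 0.000292). Of the precursors 4 rose and 1 fell, of the heparan genes 4 rose and none fell. Without C and O 8 of 32 genes passed (25.0%, background 19.8% of 11299), namely FAM20B, CHSY1, EXTL3, UGDH and PAPSS2 rising and B4GALT7, B3GAT3 and CHPF falling. PAPSS2 then rose by 0.16 (SE 0.05, adjusted p 0.0279).

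ACAN and MKI67 were measured in the same clones, and their levels had r of 0.26 (permutation p 0.312), rho of 0.267 (permutation p 0.3) and r of 0.212 without N and O. With both in one fit, 7 genes rose with ACAN (background 4.68%). XYLT1 then had a slope on ACAN of 0.20 and UXS1 of 0.13 (edgeR adjusted p 0.00221 for both), and PAPSS2 had 0.16 (adjusted p 0.0496). XYLT1, UXS1 and PAPSS2 passed on each measure alone, and so did HS3ST3A1, which entered both tests only through its few high clones. The call of UXS1 on MKI67 (0.14, SE 0.05, edgeR adjusted p 0.0444) was lost in 12 of 27 alternatives.

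**Figure D3:**
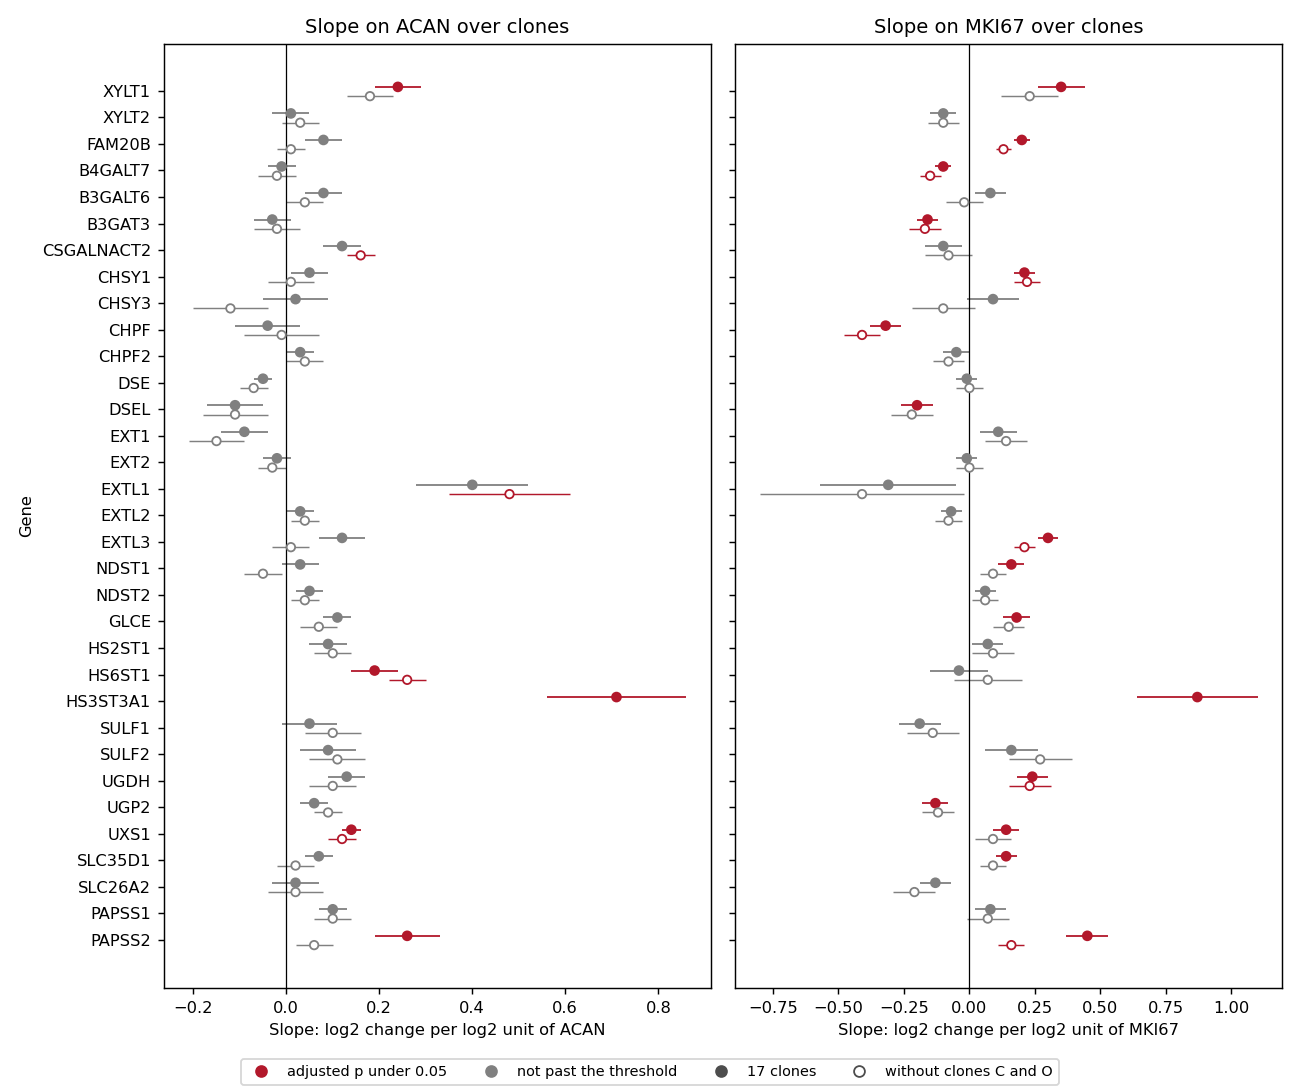
Slopes of 33 enzyme genes on ACAN (left) and on MKI67 (right) across clones, in log2 units per log2 unit, with bars of 1 SE; filled points use 17 clones, open points leave out C and O, and red marks an adjusted p under 0.05 (edgeR). PAPSS2 moves from 0.26 to 0.06 on ACAN when C and O are left out, UXS1 from 0.14 to 0.12, and CHSY1 and CHPF lie on opposite sides of 0 on MKI67.

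Enzymes that act together or one after the other were compared in 15 pairs, 11 of related enzymes and 4 of partners or consecutive steps, with permutation tests over the 17 clones adjusted over the 15 pairs. The 3 pairs that passed were of the second kind, and the difference between the kinds was not tested. Over all pairs of the 11227 genes, 8.67% had an r of at least 0.657 in either direction, the smallest of these 3. UGDH and UXS1, consecutive steps from UDP-glucose to UDP-xylose, rose together, with r of 0.822 (permutation p 2e-05, adjusted p 0.0003) and rho of 0.897 (permutation p 1e-05, the smallest that 100000 resamples can give). Without D and N r was 0.798, and without C and O 0.774. GLCE and HS2ST1, which act in turn on the uronic acid of heparan, had r of 0.657 (permutation p 0.00317, adjusted p 0.0158) and rho of 0.662 (permutation p 0.00477), and r of 0.655 without L and O. CHSY1 and CHPF went opposite ways, with r of -0.755 (permutation p 0.00056, adjusted p 0.0042) and rho of -0.699 (permutation p 0.00237). It was -0.764 without M and O and -0.751 without C and O. L, with 248 CPM of CHSY1, had 204 of CHPF, whereas D, with 137 of CHSY1, had 821 of CHPF, and the log2 ratio of CHSY1 to CHPF ran from -2.58 in D to 0.28 in L. CHSY1 and CHPF also had MKI67 slopes of opposite sign, and how far that accounts for the pair was not tested.

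None of the 11 pairs of related enzymes passed, and none had an unadjusted permutation p under 0.05 for r. The pairs with CSGALNACT1, HS6ST2 or HS3ST1 could hardly have passed, since these genes had medians of 1, 2 and 2 reads over the clones. XYLT1 and XYLT2 had r of -0.068 (permutation p 0.792, adjusted p 0.792) and SULF1 and SULF2 had r of 0.155 (permutation p 0.554, adjusted p 0.594). SULF1 over SULF2 ran from -1.47 on the log2 scale in G to 1.41 in M. PAPSS1 and PAPSS2 had r of 0.436 (permutation p 0.0856, adjusted p 0.321) and rho of 0.583 (permutation p 0.0157, adjusted p 0.0589), and the log2 ratio of PAPSS1 to PAPSS2 ran from -1.15 in O to 1.24 in M. EXT1 and EXT2, subunits of one polymerase, had r of 0.253 (permutation p 0.329, adjusted p 0.448).

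**Figure D4:**
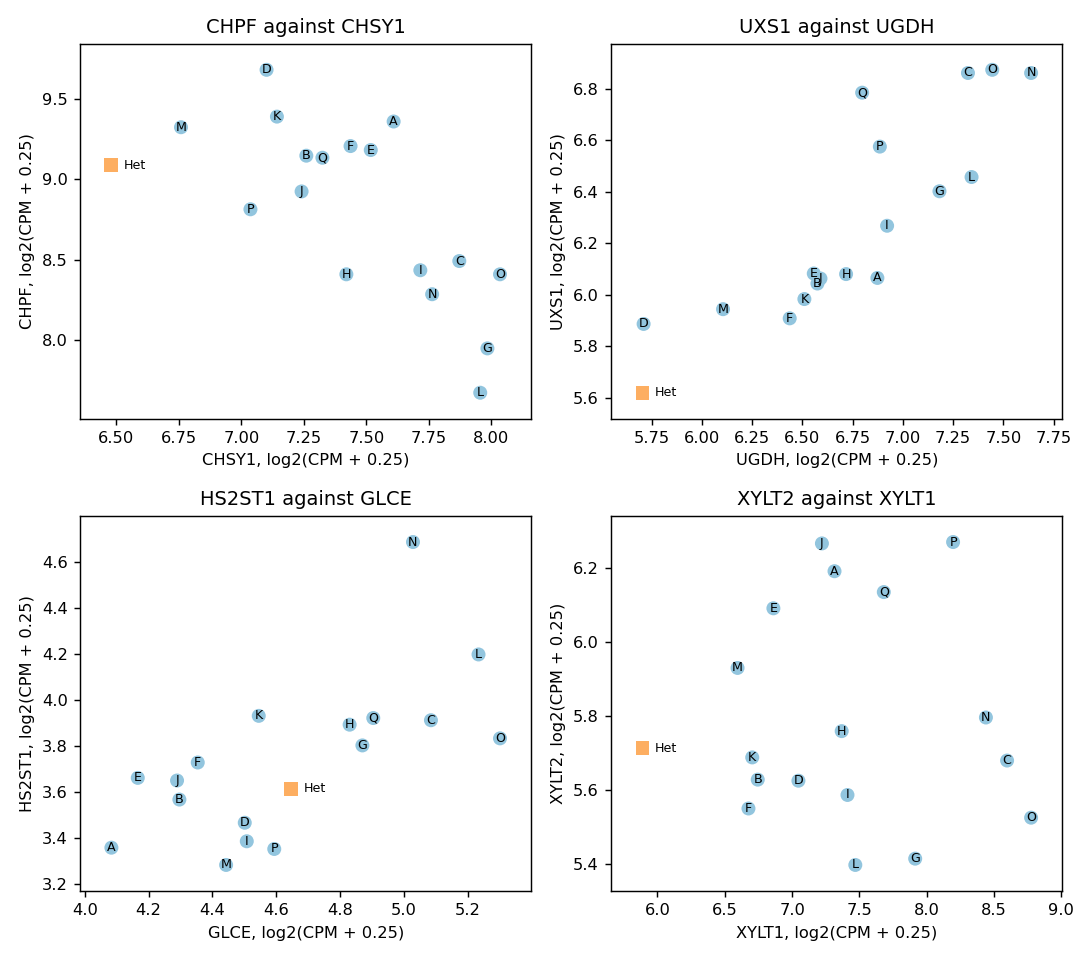
Levels of 4 pairs of enzyme genes as log2(CPM + 0.25), 1 lettered point per clone and a square for the heterogeneous library, which was not part of r. UXS1 rises with UGDH and HS2ST1 with GLCE, CHPF falls as CHSY1 rises (r of -0.755), and XYLT1 and XYLT2 have r of -0.068.

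The heterogeneous library was then compared with the 17 clones. By edgeR's quasi-likelihood test 0 of 35 genes passed, where the background was 1.22% of 11878 genes, nearly all higher (144 against 1). The limma-voom and DESeq2 Wald tests also called 0 of the set. At an unadjusted p under 0.05 there were 5 (background 7.68%). DSEL was higher by 0.96 (SE 0.45, edgeR p 0.0455, adjusted p 0.635). XYLT1 (-1.76, SE 0.82), CHSY1 (-1.05, SE 0.40), CHSY3 (-1.60, SE 0.72) and UGDH (-1.18, SE 0.53) were below, with adjusted p-values of 0.506 to 0.637. The spread comes from the clones alone, since 1 heterogeneous library gives none.

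By level, the heterogeneous library lay below all 17 clones for 6 of the 35 genes (17.1%), where the background was 8.6%, and above all of them for 0 (background 9.56%). It had 59.0 CPM of XYLT1 (clones from 96.4), 89.0 of CHSY1 (from 108), 17.3 of CHSY3 (from 24.3), 16.7 of EXTL2 (from 18.2), 51.9 of UGDH (from 52.1) and 48.9 of UXS1 (from 58.9). For UGDH and EXTL2 the gap to the lowest clone was small. MKI67 was also below all clones in this library, at 18.6 CPM, and ACAN was 56.0. Of 18 listed macrophage markers, 17 were above all clones in it, with a summed level of 189 CPM against 3.40 to 9.64 in the clones, and MARCO was at 0 in all libraries. Their part in the lower enzyme levels was not tested.

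Other genes of the pathway, such as the chondroitin sulfotransferases, the precursor enzymes of the amino sugars and heparanase, made a list of 29, of which 24 had a read and 21 were tested for slopes. With ACAN, where 3.23% of all genes rose and 2.13% fell, 2 of the list rose and none fell. These were CHST12, a chondroitin sulfotransferase gene (0.15, edgeR adjusted p 0.00628), and GFPT2, which opens the hexosamine route (0.36, adjusted p 0.0155). With MKI67, where 18.2% of all genes rose and 18.9% fell, the sulfotransferase genes CHST3, CHST11 and CHST14 were among those that rose, CHST12, CHST13, CHST15 and UST did not pass, and 2 genes fell (PGM3 and SLC35B3). In the heterogeneous library the heparan-cleaving HPSE lay 6.12 log2 units above the clones, with 0 to 73 reads over all libraries. It did not enter the slope tests over clones. It passed the filter on low counts only with the heterogeneous library, where it was high, so its call there carries no weight. The median slope on ACAN of this list was 0.07, against 0.01 for all genes.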

How the data were processed

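Poly-adenylated RNA of 17 bovine MSC clones and 1 heterogeneous population from the same donor was sequenced with single-end reads. The authors aligned these to bosTau7 with STAR (2.3.0e in the submitters' processing notes) and HTSeq assigned them to RefSeq genes. The deposited values are raw counts per gene and library, without normalization. The 5 tally lines that name no gene were left out (18.8% to 26.8% of reads outside genes, 0.164% to 0.192% ambiguous). The strand setting is not given in the sources used here, so reads of a gene and an antisense partner cannot be told apart. A table of the whole series was not used.

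Counts were tested with edgeR 4.0.16 (TMM, filterByExpr, glmQLFit, glmQLFTest) in R 4.3.3 over all genes, with Benjamini-Hochberg adjustment and a threshold of 0.05, for each clone against the other 16, for slopes on the log2(CPM + 0.25) of ACAN and of MKI67 over 17 clones, and for the heterogeneous library against the clones. CPM used TMM library sizes. Pairs were tested with two-sided permutations of 100000 resamples (scipy 1.17.1). Alternatives were limma 3.58.1, DESeq2 1.42.0, other size factors, no filter, a pseudocount of 1, the 2 slopes in one fit, the heterogeneous library in the slopes, and clones left out. Leaving out C and O together, leaving out the partner, and the share of reads outside genes as a covariate were added after seeing the data. On simulated counts of 11324 genes edgeR found 82.0% of ACAN slopes of 0.25 with 5.20% of calls false, and on 11275 genes 37.5% of MKI67 slopes of that size with 2.60% false. Simulated slopes were placed only in genes above a minimum expected count. In all simulations genes and clones were drawn independently, without the closeness of C and O. The false rates may therefore not hold for these clones.

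The 37 genes and all lists were chosen with earlier results of these data known. Named are genes called in any test, the widest and narrowest gene of each step and genes of pairs past the threshold. Values of other members are given as ranges. The result of 1 other pathway gene is not reported here.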

Additional observations from a re-analysis of the deposited data

How the results depend on the processing

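The number of genes rising with ACAN was 5 of 33 (background 5.36%), and 4 of 32 without HS3ST3A1. It was 2 with limma-voom (background 4.28%) and 3 to 8 with 1 clone left out (background 2.33% to 10.4%). With the share of reads outside genes as a covariate it was 3 of 34, where the background was 2.14%. Those were UXS1, XYLT1 and HS3ST3A1, the last of which entered through its few high clones. These backgrounds count both directions. The number rising or falling with MKI67 was 16 (background 37.1%), and 15 of 32 without HS3ST3A1. It was 8 without C and O (background 19.8%) and 12 to 16 with 1 clone left out (background 28.3% to 39.6%). In single clones the count of 0 became 1 with library totals (UGP2 in N), 6 with limma-voom, 3 with the DESeq2 Wald test and 2 with the partner of C or O left out. The number of pairs past the threshold was 3, and 2 to 3 with 1 clone left out. The other alternatives of these counts stayed within 1.5 times of the value reported, no called value turned its direction, and the median SD of the set was 0.34 to 0.44 throughout. The cause of these changes was not tested. In the comparison of single clones, library totals in place of TMM moved the median of all genes from -0.05 to 0.17 in L and from -0.05 to -0.24 in A. No paired analysis was possible because each clone is 1 library and the labels give no replicate numbers.

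Depth limits HS6ST2, HS3ST1, CSGALNACT1 and HS3ST3A1, which had few reads in most libraries. On simulated counts of 11823 genes, edgeR found 71.0% of genes changed by log2 2 in a single clone, and on 11821 genes 70.0% of those in the heterogeneous library. DESeq2 gave 24.64% and 26.70% false calls in the same simulations.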

Other observations

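Of 22 listed core proteins that carry such chains, 20 had a read and 15 were tested for slopes. At an edgeR adjusted p under 0.05, SDC4 rose and GPC4 fell with ACAN, where 3.23% of all genes rose and 2.13% fell. With MKI67 none rose and 3 fell (SDC1, SDC2 and SDC3), where 18.2% of all genes rose and 18.9% fell. SDC4 had a slope of 0.19 on MKI67 (edgeR adjusted p 0.181). None of the 15 passed in the heterogeneous library. The summed level of the list was 7330 to 11600 CPM in the clones and 8690 in the heterogeneous library.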
